A study of Mus musculus with 12 samples.

Results

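The GTPases of the immunity-associated protein (GIMAP) family were followed in LSK cells of mice that lack Fancg and of WT mice. LSK stands for bone marrow cells sorted as lineage-negative with Sca-1 and KIT at the surface, among which are the hematopoietic stem cells and the early progenitors. The family was taken as the 8 genes Gimap1, Gimap3, Gimap4, Gimap5, Gimap6, Gimap7, Gimap8 and Gimap9, out of 35999 genes in the table. The family was chosen by the p of Gimap6 between KO and WT, which was among the smallest, with less signal in KO. No test of that difference is therefore given for any member.

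RNA was sequenced from 12 mice with 1 library each, 6 labelled WT and 6 labelled Fancg KO. The KO mice are constitutive Fancg-/- animals given by another laboratory, and no age, drug or other allele is named for either group. Sorted LSK cells were used in both groups, and libraries were made from enriched mRNA with a CATS RNA-seq kit and sequenced on an Illumina NextSeq. The unit is the authors' normalized count, called signal here. It was taken to be an estimated read count divided by 1 size factor per library, which the values bore out only in part.

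GIMAP proteins are small GTPases that sit on the membranes of lysosomes, mitochondria and other organelles, and they are best known from lymphocytes. Several members are needed for the survival of T cells, and loss of Gimap5 in mice also harms hematopoietic stem cells. Gimap6 binds a member of the ATG8 family, the small proteins that coat autophagosomes, and takes part in autophagy of T cells. The genes lie side by side in 1 cluster, as is common for families that grew by duplication.

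The libraries had a total signal of 1576081 to 2672915, which the step between low values puts at about 1235110 to 2471413 reads. A single gene, Lars2, held 15.6 to 36.2% of the signal of a library, so less was left for all other genes. Fancg, the targeted gene, had a signal of 4.76 to 24.1 under the WT label and 4.46 to 14.5 under the KO label, so its deposited values do not separate the labels. There were 2 libraries that stood apart, since WT replicate 3 and KO replicate 7 had a summed signal of 26.6 and 49.7 for 4 Y-linked genes, against 188.7 to 435.3 in the other 10. The values of Gimap genes are therefore also given without these 2 libraries. Kit, which codes for a surface marker of the sort, had a mean signal of 343.4 over the 12 libraries. Ly6a, which codes for Sca-1, the other one, had 10.8, from 4.84 to 17.4. Cd34, which was not sorted on, had 620.2.

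The cluster spans chr6:48647234-48770851 of GRCm38 (GENCODE M21), which is 123.6 kb. Gimap8 comes first, followed by Gimap9, Gimap4, Gimap6, Gimap7, Gimap1, Gimap5 and Gimap3. Gimap6 and Gimap3 are read from the minus strand and the other 6 from the plus strand. Fancg is on chromosome 4. A read-through gene, Gm28053, starts beside the start of Gimap7 and runs past Gimap1 into Gimap5, and an antisense gene, Gimap1os, overlaps Gimap1.

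The bases before 4 of the starts are shown in the 5' to 3' direction of each gene, 100 bases each, to set the start of Gimap6 beside those of 3 members whose KO and WT values overlapped more. They come from RefSeq windows on GRCm38.p6, in which all 8 members were matched. Capitals mark letters of the ETS motif (GGAAGT) or the RUNX motif (TGTGGT, here as its reverse complement ACCACA). These 2 motifs are bound by transcription factor families of blood cells.
Gimap6 (chr6:48708245-48708344, minus strand): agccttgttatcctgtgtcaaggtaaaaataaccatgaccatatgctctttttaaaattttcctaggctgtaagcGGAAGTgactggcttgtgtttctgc
Gimap5 (chr6:48746097-48746196, plus strand): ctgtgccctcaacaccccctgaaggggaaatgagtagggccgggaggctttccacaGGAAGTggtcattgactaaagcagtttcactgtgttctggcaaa
Gimap1 (chr6:48738947-48739046, plus strand): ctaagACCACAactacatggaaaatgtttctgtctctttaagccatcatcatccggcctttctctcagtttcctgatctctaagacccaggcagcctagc
Gimap8 (chr6:48647134-48647233, plus strand): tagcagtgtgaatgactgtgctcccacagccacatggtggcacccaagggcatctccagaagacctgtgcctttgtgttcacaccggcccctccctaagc

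Both strands of the 250 bases before each start were searched. The ETS letters begin 25 bases before the start of Gimap6 and 44 bases before that of Gimap5, which holds them again at 216 bases. They are in 19.7% of the 32851 windows of that length. The RUNX letters are in the windows of Gimap1, Gimap4 and Gimap7, beginning 95, 145 and 79 bases before the start, and in 14% of all windows. TATAAA was found for Gimap6 alone among the members, at 219 bases, against 12.4% of all windows. Among the other letters searched, AGATAA, for factors named after GATA, was in none of the members' windows and in 9.99% of all windows. The E-box CACGTG was in none and in 6.02% of all. These 5 searches describe letters only, and no motif was found in all members.

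Gimap6 had the highest mean signal of the family, before any correction for length. Its signal in WT libraries was 44.96 at the lowest, 58.0 at the median and 76.1 at the highest. In KO libraries it was 26.4 at the lowest, 37.4 at the median and 45.6 at the highest. The ranges overlapped by 1 library on each side, since KO replicate 4, at 45.6, lay just above WT replicate 4, at 44.96, and the other 5 KO libraries lay below every WT library. The mean was 61.1 ± 12.1 (SD, n = 6) in WT and 37.4 ± 6.99 (SD, n = 6) in KO, which is 38.8% less. On the log2(signal + 1) scale the difference, KO minus WT, was -0.69 ± 0.18 (SE). Without the 2 libraries low in Y-linked transcripts it was -0.70, and with any 1 library left out it stayed between -0.77 and -0.60. As the sort fixes surface markers and not the makeup of the fraction, fewer cells that express a gene and less RNA of it per cell cannot be told apart in these bulk samples.

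**Figure D1:**
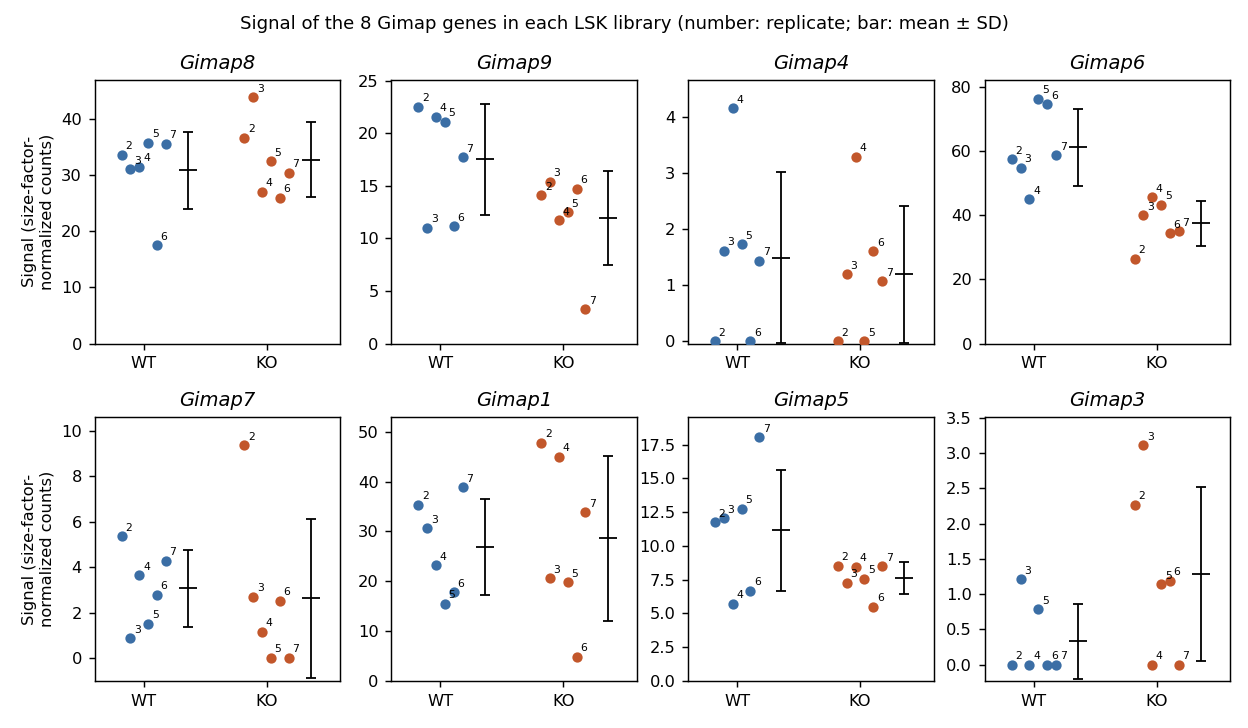
Signal of each Gimap gene (y axes, normalized counts, separate scales) in the 6 WT and 6 KO libraries, in the order of the genes on the chromosome; points are libraries with their replicate number and bars give the mean ± SD. For Gimap6 the KO points lie between 26.4 and 45.6 and the WT points between 44.96 and 76.1, while the points of both groups are mixed for Gimap8 and Gimap1.

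Gimap9, a small and little studied member, had a signal of 11.0 at the lowest, 19.4 at the median and 22.5 at the highest in WT. In KO it had 3.29, 13.3 and 15.4 in the same order. Above every KO library lay 4 of the WT libraries, and the other 2 lay at 11.0 and 11.1, within the KO range. The log2 difference was -0.58 ± 0.33 (SE), and it rested in part on KO replicate 7, the lowest library, without which it was -0.29. Without the 2 libraries low in Y-linked transcripts it was -0.40.

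Gimap5 had a mean signal of 9.40 over the 12 libraries, just under the mean of 10 that a gene needed to be tested. Its signal was 5.71 at the lowest, 11.9 at the median and 18.03 at the highest in WT, and 5.49, 8.01 and 8.54 in KO. The KO libraries were close together, with a mean of 7.63 ± 1.18 (SD, n = 6), whereas the WT libraries spread widely around 11.2 ± 4.49 (SD, n = 6). Above every KO library lay 4 of the WT libraries. The log2 difference was -0.42 ± 0.25, where the SE is that of the 12 values of the gene alone, as for every gene under the filter. It was -0.27 without WT replicate 7, the highest library, and -0.41 without the 2 libraries low in Y-linked transcripts.

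Gimap8, the longest protein of the family, and Gimap1, which is needed for mature T and B cells, had KO and WT means that lay close together. Gimap8 had a signal of 17.5, 32.5 and 35.7 (lowest, median and highest) in WT and 26.0, 31.4 and 43.8 in KO. Its log2 difference was 0.10 ± 0.20 (SE), and -0.05 without WT replicate 6, the library at 17.5. Gimap1 had a signal of 15.5, 26.9 and 38.9 in WT and 4.88, 27.3 and 47.8 in KO. Its KO libraries covered a wider range than the WT libraries, and its log2 difference of -0.12 ± 0.43 (SE) became 0.29 without KO replicate 6, the library at 4.88. For both genes the groups overlapped almost wholly. Without the 2 libraries low in Y-linked transcripts the differences were 0.12 for Gimap8 and -0.17 for Gimap1.

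Gimap7, Gimap4 and Gimap3 were close to 0, at a mean signal of 2.85, 1.34 and 0.81 over the 12 libraries. Gimap7 was above 0 in 10 libraries, Gimap4, known from T cell survival, in 8, and Gimap3, the closest relative of Gimap5, in 6. Divided by the step of the library, their highest values came to 8.70 for Gimap7, 5.68 for Gimap4 and 3.72 for Gimap3. These are rough numbers of reads. The genes were below the mean signal of 10 needed to be tested, and no difference between genotypes is read from them. Gimap3 was above 0 in 2 of 6 WT and 4 of 6 KO libraries. The log2 differences were -0.54 ± 0.59 for Gimap7, -0.14 ± 0.50 for Gimap4 and 0.67 ± 0.41 for Gimap3 (SE). That of Gimap4 changed sign with quantile normalization, to 0.32, and that of Gimap7 became -0.07. With 1 library left out, Gimap7 ran from -0.94 without KO replicate 2 to -0.27 without KO replicate 5 or KO replicate 7. Gimap4 ran from -0.37 without KO replicate 4 to 0.12 without WT replicate 4, and was 0.05 without KO replicate 2 or KO replicate 5. Gimap3 ran from 0.46 without KO replicate 3 to 0.87 without KO replicate 4 or KO replicate 7. Without the 2 libraries low in Y-linked transcripts the differences were -0.47 for Gimap7, -0.10 for Gimap4 and 1.03 for Gimap3.

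In all, 8887 genes were tested with limma, and 233 of them (2.62%) had an unadjusted p under 0.05 with a log2 difference beyond 0.5, 110 of them (1.24%) with less signal in KO. None (0%) had an adjusted p under 0.05, while 326 had an unadjusted p under 0.05. Of the members, 4 passed the filter and 1, Gimap6, was past both thresholds. It was chosen for that, so nothing is read from the count. The groups did not overlap in 8 of the genes tested (0.09%) and in 0 of the members. The median log2 difference was -0.28 over the 8 members and 0.00315 over the genes tested. The 8 include Gimap6, chosen for its lower KO signal, and 4 members under the filter, so no shift of the family is read from this.

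Summed over the 8 members, the signal was 130.4 at the lowest, 154.2 at the median and 174.5 at the highest in WT, and 90.6, 125.3 and 145.1 in KO. Above every KO library lay 3 WT libraries, and 3 KO libraries lay below every WT library. Gimap6 made up 40.5% ± 9.46 (SD, n = 6) of this sum in WT and 31.02% ± 7.08 (SD, n = 6) in KO. Without Gimap6 the sum was 91.2 ± 20.8 (SD, n = 6) in WT and 86.0 ± 21.8 (SD, n = 6) in KO, a gap smaller than the spread within either group. Gimap8 followed with 20.1% ± 3.47 in WT and 26.7% ± 4.53 in KO (SD, n = 6).

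**Figure D2:**
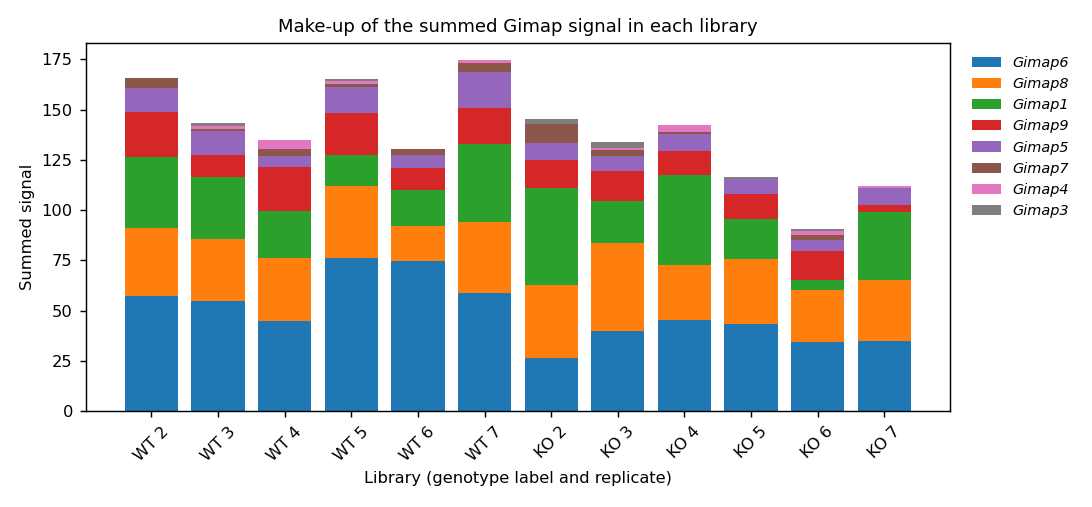
Summed signal of the Gimap genes (y axis, normalized counts) in each library (x axis, genotype label and replicate), with 1 coloured segment per gene. The Gimap6 segment at the base is between 44.96 and 76.1 in WT and between 26.4 and 45.6 in KO, and the total runs from 174.5 in WT replicate 7, the highest, to 90.6 in KO replicate 6, the lowest.

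Levels were compared between members per kb of the median transcript length in the annotation. Gimap6 was first at 48.8 ± 15.4 signal per kb (SD, n = 12), above 79.7% of the genes tested that have a length. Gimap1 at 23.0 ± 10.7, Gimap9 at 14.4 ± 5.35, Gimap8 at 10.1 ± 2.07 and Gimap5 at 7.35 ± 2.84 signal per kb followed (SD, n = 12). Gimap6 was above Gimap1 in 11 of 12 libraries, Gimap1 above Gimap9 in 9, Gimap9 above Gimap8 in 11 and Gimap8 above Gimap5 in 11. Gimap7 at 2.83 ± 2.62, Gimap4 at 1.36 ± 1.34 and Gimap3 at 0.393 ± 0.503 signal per kb came last, and neighbours among these 3 were in the same order in 6 and 7 libraries only. Gimap6 has transcripts of very unequal length, and per kb of the longest transcript it came second, at 15.5, after Gimap1 at 17.2.

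**Figure D3:**
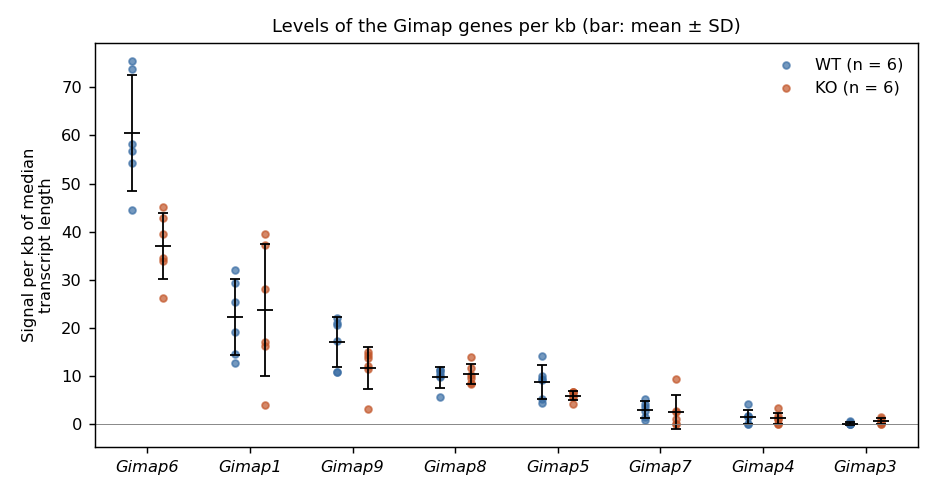
Signal per kb of median transcript length (y axis) of the Gimap genes in order of their mean level (x axis), WT and KO side by side; points are libraries and bars give the mean ± SD. Gimap6 is highest in both groups, with 60.5 in WT and 37.1 in KO, and Gimap7, Gimap4 and Gimap3 lie near 0.

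Parts of the members cannot be told apart by sequence. Of all 31-base words in the Gimap1 transcripts, 38.2% also occur in another gene, 1049 of them in Gimap1os and 168 in Gm28053. Gimap3 and Gimap5 share 335 words, which are 13.2% of those of Gimap3. Gimap6 shares 1.42% of its words with other genes and none with another member, and Gimap9 and Gimap4 share none at all. Words were matched on both strands. Gm28053 has its own values, so the split of signal between it and Gimap1 is uncertain. Gimap1os has no values under that name, and how its reads were counted is not known. The signal of Gimap6 is not split with any other member. Gm28053 had a signal of 0 to 9.02, with a log2 difference of -0.91 ± 0.56 (SE). Summed with Gimap1, Gimap5 and Gimap7, whose sequence it shares, it gave 44.7 ± 15.2 in WT and 40.6 ± 19.5 in KO (SD, n = 6).

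The protein-coding genes of the table that lie next to the cluster were taken beside the members. Tmem176b and Tmem176a, which code for membrane proteins of myeloid and other cells, had log2 differences of 0.10 ± 0.18 and 0.07 ± 0.13 (SE). Zfp775 and AI854703, on the other side, had a mean signal of 8.93 and 3.88, with log2 differences of -0.54 ± 0.54 and -0.28 ± 0.55 (SE). The pseudogene Gm44262 was at 0 in every library. Gimap1os and the 2 lincRNA genes Gm44226 and 4833403J16Rik had no values under these names.

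**Figure D4:**
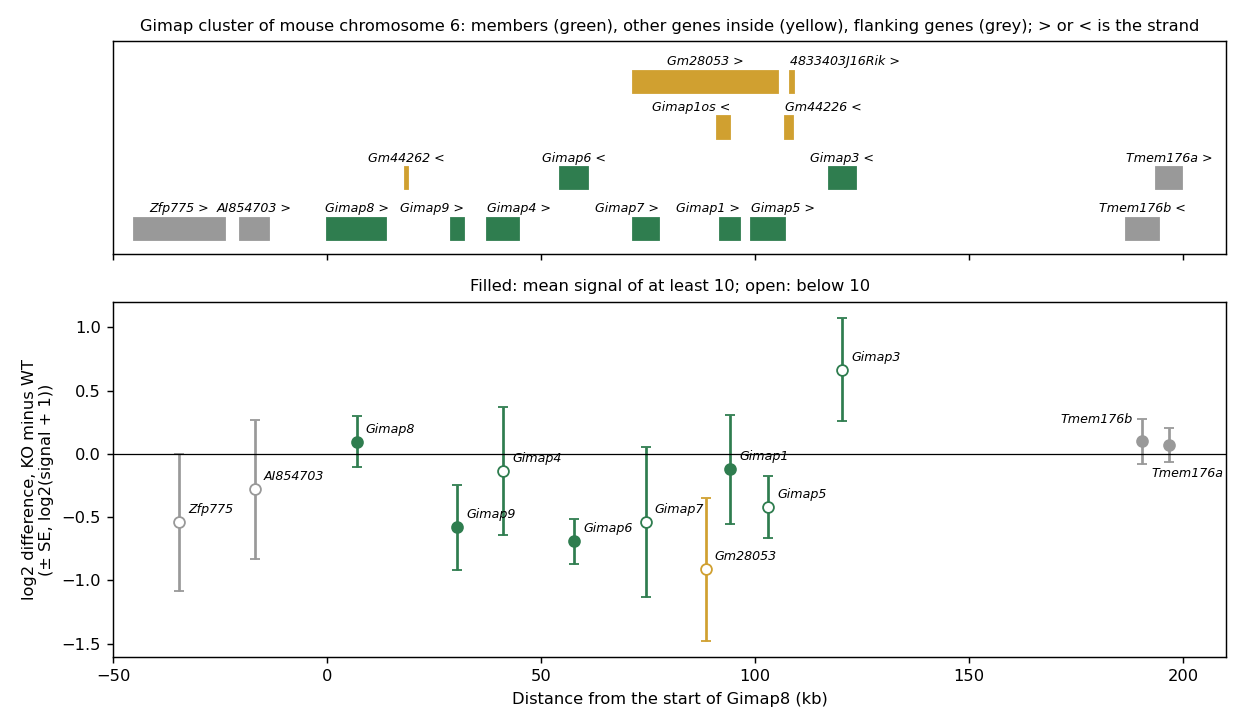
Upper panel, the Gimap cluster with its neighbours by distance from the start of Gimap8 (x axis, kb); lower panel, the log2 difference of each gene, KO minus WT, with its SE (y axis, log2(signal + 1) scale), filled where the mean signal was at least 10. Gimap6 has the smallest SE among members below 0, at -0.69 ± 0.18, while Gimap8 at one end and Tmem176b beyond the other end lie at 0.10.

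Within genotypes the members did not vary together as 1 group. Deviations of log2(signal + 1) from the mean of the genotype were compared over the 12 libraries for Gimap1, Gimap5, Gimap6, Gimap8 and Gimap9. Pearson's r of the 10 pairs ran from -0.29 to 0.52 with a median of 0.03. Gimap5 had an r of 0.52 with Gimap1 (Spearman's rho 0.43, and 0.48 for r without the 2 libraries farthest from the median) and of 0.52 with Gimap8 (rho 0.51, and 0.44 without 2 libraries). Gimap6 had an r of -0.21 with Gimap1, -0.29 with Gimap8, -0.08 with Gimap9 and 0.14 with Gimap5. These values share the depth of each library and are given as a description, with no p.

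The 5 genes most like Gimap6 by the same r were Nop58, a core protein of box C/D snoRNPs, at 0.90, Rmnd1, needed for mitochondrial translation, at 0.87, Nr4a1, an orphan nuclear receptor, at 0.86, Aph1b, a gamma-secretase subunit, at 0.84 and Ttc19, needed for respiratory complex III, at 0.84. None of these 5 is a member, and Gimap9, the first of the 3 other members that passed the filter, had rank 5512. With rho in place of r, 3 of the 5 stayed among the first 5, and 3 did so without the 2 libraries low in Y-linked transcripts. Between genotypes the log2 differences of the 5 genes were 0.04 ± 0.13 for Nop58, -0.03 ± 0.29 for Rmnd1, -0.05 ± 0.80 for Nr4a1, -0.61 ± 0.54 for Aph1b and 0.25 ± 0.24 for Ttc19 (SE).

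Genes that work with GIMAP proteins were described from lists. Of 13 tested genes of the ATG8 and autophagy list, 0 were past both thresholds (2.62% of all genes tested), and their median log2 difference was 0.10. Map1lc3b, which codes for the LC3B protein on autophagosomes, had a mean signal of 138.0 ± 20.1 in WT and 131.6 ± 19.8 in KO (SD, n = 6). Gabarapl2, the ATG8 protein known to bind Gimap6, had a log2 difference of 0.12 ± 0.33 (SE). Of 6 tested BCL2 family genes 0 were past both thresholds, with a median of 0.24. Bcl2 and Mcl1, which keep lymphocytes and stem cells alive, had log2 differences of 0.12 ± 0.14 and -0.01 ± 0.22 (SE). Septins, the GTPases closest to GIMAP proteins by fold, gave 0 of 7, with a median of 0.03.

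Interferon-inducible GTPases, another family of immune GTPases, gave 1 of 8 tested genes past both thresholds (2.62% of all genes tested). This was Gbp2, a guanylate-binding protein of host defence, with 25.1 ± 4.68 in WT and 16.3 ± 5.77 in KO (SD, n = 6), a log2 difference of -0.65 ± 0.24 (SE) and an adjusted p of 0.9996 in limma. Of 16 tested genes of the lymphoid priming list 3 were past both thresholds, all with less signal in KO (1.24% of all genes tested). The lists were chosen with earlier results of these data known, so nothing is read from this count. The median log2 difference of the 16 genes was -0.13. The 3 genes were Flt3, the receptor that marks lymphoid-primed progenitors, Ets1, a transcription factor of lymphoid cells, and Lsp1, an actin-binding protein of leukocytes. Flt3 went from 488.6 ± 95.5 to 358.4 ± 126.7, Ets1 from 23.3 ± 9.92 to 12.5 ± 8.99 and Lsp1 from 71.5 ± 20.3 to 49.8 ± 16.9 (SD, n = 6), and all had an adjusted p of 0.9996 in limma. Flt3 was past both thresholds in 12 of 23 fits, the one given here among them, Lsp1 in 15 of 23 and Ets1 in 19 of 22, and each of the 3 lost the call without WT replicate 2, without KO replicate 6 or without KO replicate 7.

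Since Gimap genes are high in lymphocytes and in some endothelial cells, markers of such cells are given beside them. The 17 T cell markers summed to 22.5 to 56.7 in WT and 29.7 to 51.0 in KO, none passed the filter, and Cd2, Cd8b1 and Trac were at 0 in every library. Cd3d, Cd3e and Cd3g had a mean signal of 0.12, 0.06 and 0.20. The highest means of the T cell list were those of Lat at 9.90, Cd247 at 5.48, Lck at 5.46 and Thy1 at 3.81. The 11 B cell markers summed to 46.3 to 208.9 in WT and 59.3 to 304.5 in KO, most of it from Ebf1, and the 9 NK cell markers to 32.3 to 66.9 and 30.4 to 81.6, most of it from Nkg7, with Ncr1 at 0. The 12 endothelial markers were led by Pecam1, at a mean signal of 40056, and without it summed to 178.8 to 225.6 in WT and 134.1 to 375.4 in KO, with Cldn5 at 0 and Cdh5 at a mean of 0.12. Eng at a mean signal of 65.2, Tie1 at 60.5 and Vwf at 41.3 came next after Pecam1. None of the B cell, NK cell or endothelial genes tested was past both thresholds. The 11 myeloid markers summed to 466.1 to 2398 in WT and 595.4 to 2584 in KO, with Ly6g at 0 and 0 of 8 tested genes past both thresholds. Among erythroid and megakaryocyte markers the 1 gene tested, Itga2b, was past both, with 14.8 ± 2.99 in WT and 25.8 ± 9.70 in KO (SD, n = 6) and an adjusted p of 0.9996 in limma, while the 12 markers of that list summed to 25.4 to 70.8 and 40.1 to 113.1. The 14 LSK markers summed to 1908 to 2452 in WT and 1532 to 2257 in KO, and Flt3 was the 1 of 12 tested past both thresholds. Of all genes tested, 2.62% were past both thresholds. The part of these cell types in the Gimap values was not tested.

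Gimap genes differed in how they varied with these lists within genotypes. Over the 12 libraries, 60 correlations of 5 members with 12 list sums were computed, and 3 were above 0.8 in size. Gimap1 varied with the LSK list (r 0.89, rho 0.65, and 0.69 without the 2 libraries farthest from the median). Gimap6 did so with the BCL2 family list (r 0.86, rho 0.80, and 0.79 without 2 libraries). The single genes of that list were mixed, from an r with Gimap6 of 0.65 for Bcl2l11, a pro-death member, to -0.33 for Bcl2l1. Mcl1 had 0.54 and Bcl2, with the most signal of the list, 0.34. Gimap9 went against the erythroid and megakaryocyte list (r -0.85, rho -0.66, and -0.68 without 2 libraries), and Gimap8 against the myeloid list (r -0.80, rho -0.66, and -0.49 without 2 libraries). For the T cell list r was -0.07 with Gimap6 and 0.59 with Gimap8. The first 4 of these pairs were picked as the largest of 60 and the T cell list for what GIMAP genes are known for, and none has a p. Measures of the size of the library varied with members too. The approximate read count had an r of 0.01 with Gimap6 and 0.59 with Gimap9, the highest of the 5 members. The total signal had an r of -0.36 with Gimap6 and 0.56 with Gimap1, and the number of genes above 0 had -0.0043 with Gimap6 and 0.70 with Gimap8. The share of the signal held by Lars2 had an r of 0.31 with Gimap6, -0.53 with Gimap1 and -0.545 with Gimap8.

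**Figure D5:**
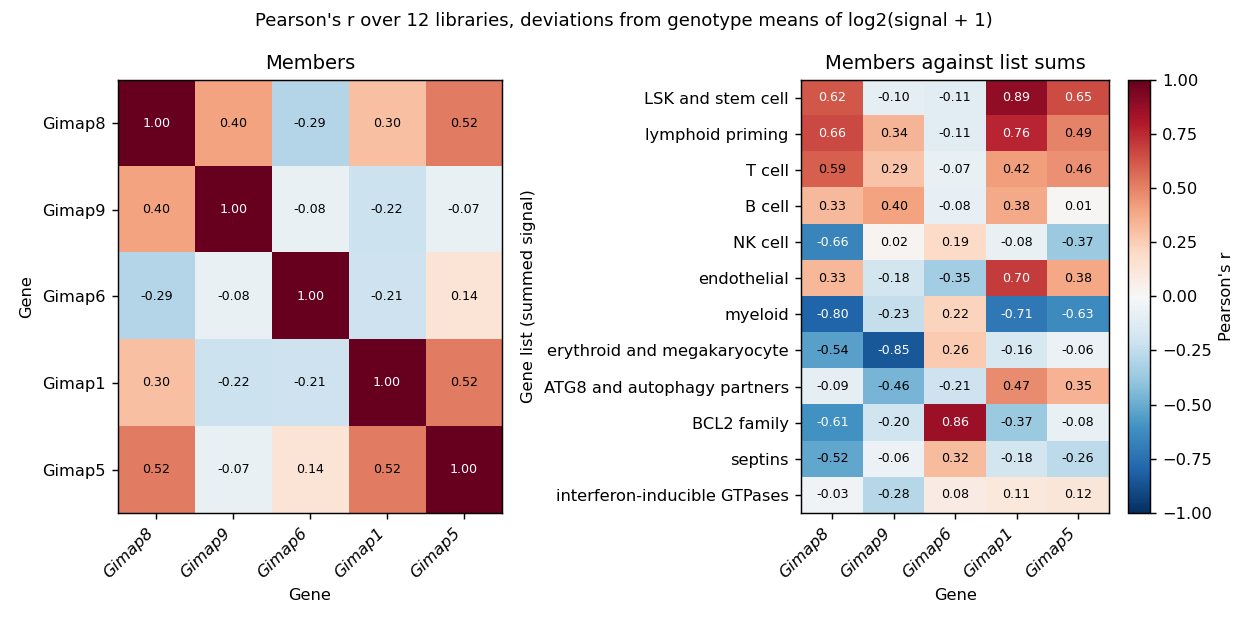
Pearson's r over 12 libraries (colour and number), for deviations of log2(signal + 1) from genotype means: on the left between the 5 Gimap genes with the most signal per kb, on the right between these genes (x axis) and the summed signal of each list (y axis). Gimap6 has values between -0.29 and 0.14 with the other members and 0.86 with the BCL2 family list. The endothelial sum is nearly all Pecam1 signal.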

How the data were processed

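LSK cells of 12 mice were compared. The authors deposited 1 signal per gene and library, taken to be kallisto's estimated count divided by a size factor. Kallisto is named in the labels without a version, and the mouse build, annotation and strand setting were not given in the sources used here. Whole reads were not recovered: within a tolerance of 0.01, 44.5 to 52.6% of low values of single-transcript genes were multiples of a library's step. For genes with several transcripts, as all 8 members are, this share was 6.23 to 8.34%. Read numbers given for members are therefore rough. Genotypes came from the sample labels, and 0 columns were left unused.

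A gene was tested where its mean signal reached 10, on log2(signal + 1) with limma 3.58.1 (trend, two-sided, Benjamini-Hochberg adjustment) in R 4.3.3, without covariates. The fit was tested on simulated data with independent noise, which covers neither linked libraries nor differences as small as that of Gimap6. Of each list the genes past both thresholds and up to 4 of the highest signal could be named, together with all members, the 5 genes most like Gimap6, Fancg and the genes in or beside the cluster (the nearest protein-coding genes in the table). Cd3d, Cd3e, Cd3g, Cdh5, Gabarapl2, Ly6a, Bcl2l1, Lars2 and the correlations with list sums were named once their values had been seen. So were Cd2, Cd8b1, Trac, Ncr1, Cldn5 and Ly6g, which were at 0 in every library. The members and lists were chosen with earlier results of these data known. Positions are from GENCODE M21 and promoters from RefSeq (GRCm38.p6), matched by symbol. 35929 of 35999 gene names were in GENCODE M21. Alternatives were other pseudocounts, filters, normalizations, a replicate block and libraries left out.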

Additional observations from a re-analysis of the deposited data

Results flagged for a closer look

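Within groups of 6 libraries, 3 values of single members lay far from the other 5 by Dixon's criterion, out of 18 groups examined. Chance flags about 1 in 20 groups. In KO replicate 2 the signal of Gimap7 was 9.38, and the rest of its group had 0 to 2.70. In WT replicate 6 that of Gimap8 was 17.5, and the rest of its group had 30.99 to 35.7. In KO replicate 7 that of Gimap9 was 3.29, and the rest of its group had 11.7 to 15.4, and this library is also low in Y-linked transcripts. Gimap6 and the summed signal of the family had no such library in either group.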

How the results depend on the processing

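The log2 difference of Gimap6 kept its direction under all 18 alternatives, from -0.77 to -0.60 with 1 library left out and from -0.72 to -0.64 under the others. The median over members ran from -0.44 to -0.17 with 1 library left out and was -0.09 after quantile normalization. Genes past both thresholds numbered 658 without a filter and 37 with a mean signal of at least 50, against 233, and 207 to 277 with 1 library left out; none had an adjusted p under 0.05 in any fit. List genes past both thresholds numbered 5 of 79 tested (6.33%), against 2.62% of all genes tested. The lists were chosen with earlier results of these data known, so nothing is read from this. List genes past both numbered 3 without the pair of libraries low in Y-linked transcripts, and 3 to 9 with 1 library left out. There were 3 without WT replicate 2, 5 or 7 or KO replicate 7, and 9 without WT replicate 6. Of the 5 genes most like Gimap6, 3 stayed with Spearman's rho and 3 without the libraries low in Y-linked transcripts. The cause was not tested. With replicate number as a block, 286 genes were past both thresholds and the Gimap6 difference was -0.69. The paper states no pairing by number, so the numbers were not taken as pairing the mice. Same-numbered libraries correlated at 0.20 on average, from 0.09 to 0.36, against -0.04 for different-numbered ones. Of 6 WT libraries, 5 correlated best with their own number, a hint from the data that same-numbered libraries are linked. What links them was not tested. Counting error is large for Gimap7, Gimap4 and Gimap3, which had at most roughly 8.70 reads in a library, going by its step between low values.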
